A study of Homo sapiens with 120 samples.

Results

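U2OS cells carrying the Dmr-PERK construct and given 100 nM thapsigargin for 24 h (3 libraries) were compared with untreated cells of the same line at the same time (3 libraries). These are 6 of the 120 libraries of the series, and all 57665 genes of its count table were taken, of which 26998 passed the filter on low counts. U2OS is an established human osteosarcoma line. Dmr-PERK, per the series text, is the eIF2α kinase domain of mouse PERK joined to DmrB, a domain that the ligand AP20187 (the dimerizer) pairs up. Both groups carry the construct and neither was given the ligand. The labels give the genotype as WT for both lines and do not say whether the construct line is a single clone. Parental U2OS cells, which lack the construct, at 24 h untreated and with 100 nM thapsigargin (3 libraries each) served as a second line. Dmr-PERK cells given 0.20 nM dimerizer (rounded) for 24 h, and those untreated or given thapsigargin for 4, 8 or 16 h (3 libraries each), served to place the response.

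Thapsigargin blocks SERCA, the pump that fills the endoplasmic reticulum (ER) with calcium, on which many ER chaperones depend. Misfolded protein in the ER activates the unfolded protein response through the sensors IRE1 (ERN1), ATF6 and PERK (EIF2AK3). IRE1 splices the XBP1 mRNA and ATF6 is cut into a transcription factor, and both raise genes for folding, transport and degradation of secreted proteins. PERK phosphorylates eIF2α, which lowers most translation and favours that of ATF4, a factor that raises genes of amino acid supply and, with CHOP (DDIT3), of cell death and recovery. The series set thapsigargin beside the dimerizer to ask how a pleiotropic ER stressor compares with the kinase alone.

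The 6 libraries held 16598884 to 26363781 estimated counts. Across genes, which are not independent replicates, replicates correlated at 0.998 in both groups. Thapsigargin replicate 3 stood apart among low genes: of the 30667 genes left out by the filter it had a count in 11122, against 5784 and 5603 in the other thapsigargin libraries and 6651 to 7517 in the untreated ones. Without it 13705 genes were called in place of 14851, with 0 turned to the other direction. For thapsigargin against untreated cells at 24 h, no count in the 33 gene lists described here moved by more than 2. In the comparisons of lines, times and agents below, list counts moved by up to 6, 2 and 3 without this library. The share of mitochondrial counts was 4.79 to 4.91% with thapsigargin and 6.10 to 6.31% untreated. The osteoblast markers RUNX2 (35.2 CPM untreated) and COL1A1 (982) were present, while SP7 was at 0 counts and IBSP at 1 in the untreated group. Among 9 blood cell markers HBA1 was at 0 in all 6 libraries, and the list summed to 0.488 to 1.84 CPM. No label says that the 3 wells of a group were separate cultures, so the p-values rest on differences among wells that may be only technical.

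After 24 h of thapsigargin, 14851 of the 26998 genes tested were called, 55.0% of them, at an edgeR adjusted p under 0.05. Of these 7436 (27.5%) rose and 7415 (27.5%) fell, and the median log2 fold change of all genes was 0.03. By at least 2-fold 2436 rose (9.02%) and 3305 fell (12.2%), and by at least 4-fold 709 and 1299. In 15902 genes (58.9%) the 3 libraries of one group all lay above the 3 of the other. With so many calls, the counts within a gene list are read against these shares. Levels are CPM (counts scaled to library size, scaled by TMM), fold changes are log2 with an approximate standard error and n = 3 per group, and positions are those of GENCODE 29 on GRCh38. In bulk RNA, fewer cells of a kind and less RNA per cell cannot be told apart.

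Genes of protein folding in the ER rose, with treated libraries far above untreated ones. HSPA5 (BiP, ENSG00000044574.7, chromosome 9, 125234853 to 125241330, minus strand), the main ER chaperone and the protein that holds the stress sensors inactive, was at 561, 543 and 577 CPM in the untreated libraries and at 6683, 6527 and 5987 with thapsigargin. The groups were far apart, and replicate 3 was the lowest of the treated ones. This is a 11.4-fold rise (log2 3.51 ± 0.04, edgeR adjusted p = 5.2e-84), from 0.0561% to 0.640% of all scaled counts. DNAJB9 (ERdj4, ENSG00000128590.4, chromosome 7, 108569568 to 108574850, plus strand), a BiP cochaperone, was at 11.9, 12.1 and 12.9 CPM untreated and 127, 125 and 122 treated (log2 3.34 ± 0.06). HYOU1 (GRP170), the nucleotide exchange factor of BiP, went from 148, 143 and 153 CPM to 1048, 1047 and 976 (log2 2.79 ± 0.04). The groups did not overlap in either gene, and the treated libraries lay within a narrow band.

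SDF2L1, a BiP-associated folding factor, was at 47.6, 44.2 and 43 CPM untreated and 249, 251 and 224 treated (log2 2.42 ± 0.08). CRELD2, an ER protein with disulfide isomerase activity, was at 68, 65.9 and 66.2 and 363, 360.2 and 332 CPM (log2 2.40 ± 0.07). In both, replicate 3 was again the lowest treated library and still several times above every untreated one. Of 31 ER chaperones and cochaperones tested 23 rose, 5 fell and 3 did not pass, with a median log2 fold change of 1.39 beside 0.03 for all genes. Of 24 disulfide isomerases and oxidases, which form and shuffle the disulfide bonds of secreted proteins, 22 rose and 2 fell (median 1.05). PDIA3 (1.49 ± 0.05), PDIA4 (1.32 ± 0.07), P4HB (1.18 ± 0.03) and TXNDC5 (1.09 ± 0.03) were among those that rose.

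**Figure D1:**
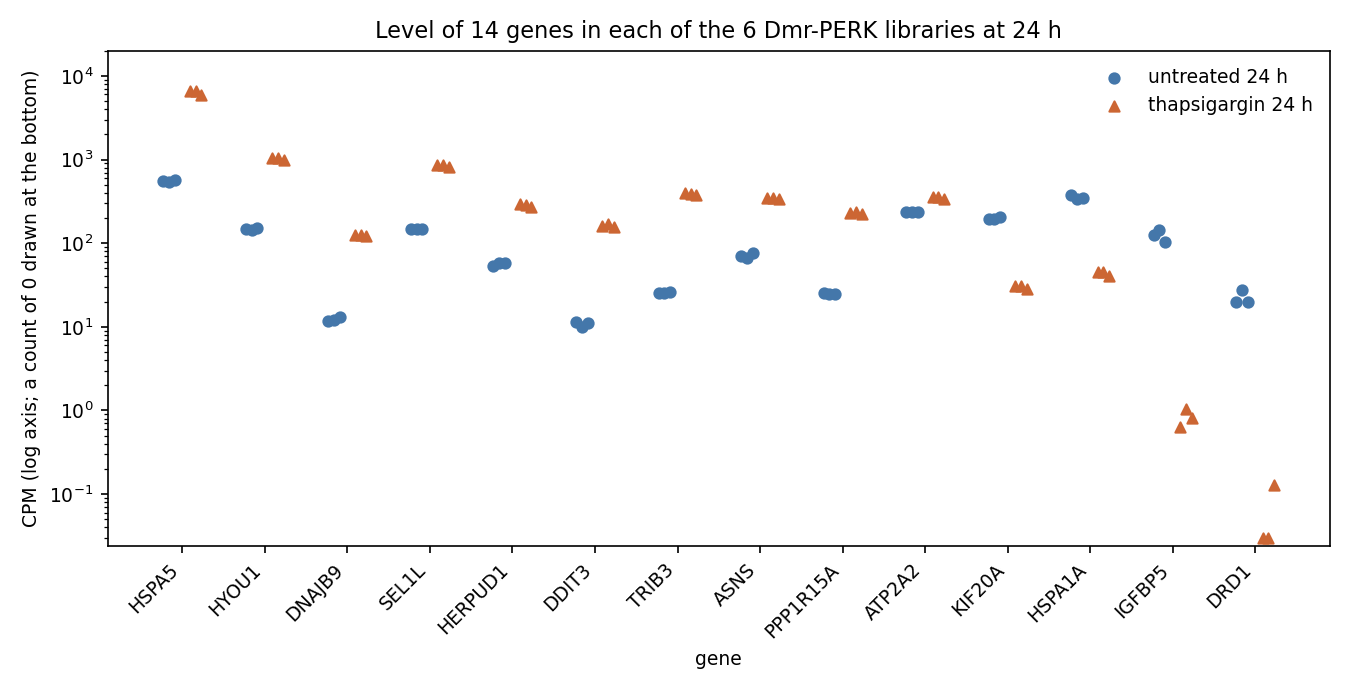
Level of 14 genes in each of the 6 Dmr-PERK libraries at 24 h, in CPM on a log axis, with circles for untreated and triangles for thapsigargin libraries and a count of 0 drawn at the lower edge. In each gene shown the 3 libraries of one group lie apart from the 3 of the other, from ATP2A2 with the smallest gap to DRD1, which was at 0 in 2 treated libraries.

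The promoters of 6 stress genes are shown as examples of what these elements look like, and were chosen because a match was found in them. The ER stress response element (ERSE: CCAAT, 9 bases, CCACG), its second form ERSE-II (ATTGG, 1 base, CCACG) and the amino acid response element (CARE: TGATGNAA, the site type bound by ATF4 with C/EBP partners) were searched on both strands. The sequences are RefSeq's, on GRCh38.p14, 5′ to 3′ on the gene's strand and upstream of the start, with 30 bases on each side of the outermost matches where the window allows. Capitals mark the matches, which read in reverse complement where they lie on the other strand. In HYOU1 a UPRE core (TGACGTG, on the gene's strand) overlaps the first ERSE-II, and both lie within the first capitals.
HSPA5, ERSE (chr9:125241361-125241439, minus strand): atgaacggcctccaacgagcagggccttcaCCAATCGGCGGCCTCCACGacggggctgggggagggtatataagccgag
CRELD2, ERSE on the other strand (chr22:49918524-49918602, plus strand): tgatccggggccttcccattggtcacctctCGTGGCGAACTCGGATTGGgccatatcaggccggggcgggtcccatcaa
HYOU1, 2 ERSE-II on the other strand and the UPRE core (chr11:119057244-119057423, minus strand): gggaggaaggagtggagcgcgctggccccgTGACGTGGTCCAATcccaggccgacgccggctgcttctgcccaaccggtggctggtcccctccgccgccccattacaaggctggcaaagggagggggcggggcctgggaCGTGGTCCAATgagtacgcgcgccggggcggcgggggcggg
SDF2L1, ERSE-II on the other strand (chr22:21642084-21642154, plus strand): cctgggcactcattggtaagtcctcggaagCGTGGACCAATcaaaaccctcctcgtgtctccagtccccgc
HERPUD1, CARE on the other strand, then ERSE-II (chr16:56931936-56932065, plus strand): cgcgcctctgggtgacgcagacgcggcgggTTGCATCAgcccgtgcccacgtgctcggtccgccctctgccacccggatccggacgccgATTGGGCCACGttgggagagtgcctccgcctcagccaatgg
CHAC1, CARE on the other strand (chr15:40953232-40953299, plus strand): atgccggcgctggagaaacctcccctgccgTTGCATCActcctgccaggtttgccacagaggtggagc

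An exact ERSE is rare: it was found in 0.0842% of the 27305 promoters of 300 bases. A promoter was matched to 11304 of the genes tested. An ERSE was found in 16 of them, in 10 of the 3628 that rose, in 0 of the 3579 that fell and in 4 of 22 ER chaperones and cochaperones. ERSE-II was in 0.0623% of all promoters, in 6 that rose, 5 that fell and 2 of the 22 chaperones. The UPRE core was in 1.92% of all promoters, in 120 of the 3628 genes that rose and 71 of the 3579 that fell. The CARE was in 3.83% of all promoters, 2.34% of those that rose, 1.48% of those that fell and 9.77% of the 256 matched genes that rose at least 4-fold. It was in 3 of 20 ATF4/CHOP targets and 4 of 11 cytosolic tRNA synthetases. These are matches of letters, which do not show binding. The shares of all promoters include genes that were not tested or not matched, so they are no reference for the genes that rose or fell.

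Genes for the rest of the secretory pathway rose as well. SEL1L (ENSG00000071537.13), the scaffold of the ubiquitin ligase that removes misfolded proteins from the ER, was at 147, 147 and 148 CPM untreated and 859, 849 and 816 treated (log2 2.52 ± 0.03). HERPUD1, a membrane partner of that ligase, went from 53.6, 57.9 and 57.9 CPM to 295, 288 and 273 (log2 2.34 ± 0.05). Both groups were tight and did not overlap. Of 33 genes of ER-associated degradation 27 rose and 3 fell (median 0.81), EDEM1, a lectin that routes glycoproteins to degradation, by 1.81 ± 0.04. Of 25 genes of the translocon and signal peptide processing 20 rose and 3 fell (median 1.03). SEC11C, a catalytic subunit of signal peptidase, was at 17.3, 17.1 and 17.8 CPM untreated and 150.5, 146 and 144 treated (log2 3.08 ± 0.07), while SEC61A1, the channel itself, rose by 1.41 ± 0.03 and SEC63 by 1.45 ± 0.04.

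Genes of transport out of the ER rose too. Of 42 genes of COPII and COPI vesicles and KDEL receptors 35 rose and 3 fell (median 0.87). SEC24D, a cargo adaptor of COPII, was at 24.4, 24.7 and 26.5 CPM untreated and 157, 155 and 149 treated (log2 2.61 ± 0.04), and the cargo receptor pair LMAN1 and MCFD2 rose by 1.88 ± 0.03 and 1.37 ± 0.03. Of 36 genes of the hexosamine pathway and N-glycosylation 29 rose and 5 fell (median 0.57). GFPT1, which commits sugar to the hexosamine pathway, was at 118, 115 and 118 and 509, 509.5 and 481 CPM (log2 2.10 ± 0.04), PGM3 of the same pathway rose by 1.62 ± 0.04 and RPN2 of the oligosaccharyl transferase by 0.79 ± 0.03.

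The sensors and factors that drive the response did not move alike. Of 16, 10 rose, 3 fell and 3 did not pass (median 0.38). ERN1 (IRE1) was at 12.2, 14.4 and 11.9 CPM untreated and 54.3, 59.2 and 54 treated (log2 2.12 ± 0.08), and XBP1, whose mRNA it splices, at 83, 77.4 and 82.1 and 245, 253 and 240.3 (log2 1.60 ± 0.05). ATF6 went from 66.2, 68.3 and 70.0 CPM to 146, 145 and 139 (log2 1.07 ± 0.04). None of these groups overlapped. Gene counts do not separate spliced from unspliced XBP1. NFE2L1 (0.96 ± 0.03), CREB3 (1.03 ± 0.05), CREB3L2 (1.25 ± 0.06), MBTPS2 (0.56 ± 0.07) and MBTPS1 (0.21 ± 0.05), the last pair being the proteases that cut ATF6, rose. So did TMBIM6 (0.54 ± 0.03), an ER membrane protein that lowers cell death, and CREB3L4 (0.22 ± 0.08), whose call was lost without thapsigargin replicate 3 (log2 0.18, edgeR adjusted p = 0.11). The CREB3L4 call was also lost with no filter on low counts, without replicate 2 or 3 of every group and on TPM values. CREB3L1, a relative of ATF6 that acts in bone matrix secretion, fell from 27.6, 26.4 and 29.7 CPM to 9.53, 9.48 and 10.2 (log2 -1.51 ± 0.08). ATF6B fell by 0.28 on the log2 scale, and this call was lost on TPM values. WFS1 (-0.04 ± 0.05, edgeR adjusted p = 0.49), DDRGK1 (0.09 ± 0.06, adjusted p = 0.21) and CREB3L3 (9 counts untreated and 2 treated) did not pass.

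Counts assigned to EIF2AK3 (PERK) fell. They were 945, 898 and 902 CPM untreated and 658, 656 and 612 with thapsigargin (log2 -0.51 ± 0.04). The level stands far above that of Parental cells (28.5, 26.6 and 27.7 CPM untreated and 100.0, 98.8 and 101 treated, a rise of 1.85). The construct holds the mouse kinase domain, whose reads a gene count may hold together with those of the human gene, so the fall may be that of their sum.

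Targets of ATF4 and CHOP rose in 32 and fell in 3 of 36 (median 1.79), 28 of them by at least 2-fold. DDIT3 (CHOP, ENSG00000175197.11) was at 11.3, 9.99 and 11 CPM untreated and 159.8, 168 and 156 treated (log2 3.90 ± 0.08, edgeR adjusted p = 4.9e-66). TRIB3, a pseudokinase induced by CHOP, was at 25.2, 25.2 and 25.8 and 395, 387 and 379 CPM (log2 3.93 ± 0.07). In both genes the 3 libraries of each group lay close together, and the groups were far apart. ATF4 itself, which is controlled mainly in translation, moved less: 335, 318 and 347 CPM untreated and 614, 622 and 587 treated (log2 0.87 ± 0.03). CHAC1, which degrades glutathione, was at 9.66, 9.22 and 10.2 and 59, 57.7 and 53.8 CPM (log2 2.55 ± 0.09). ATF3 rose by 2.42 ± 0.07 and SESN2, an inhibitor of mTORC1, by 1.81 ± 0.07. TXNIP, which binds thioredoxin and lowers glucose uptake, was at 21.9, 22.3 and 18.7 CPM untreated and 119, 122 and 113 treated (log2 2.48 ± 0.08). The groups did not overlap in any of these genes.

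Of 17 genes of the eIF2 pathway 10 rose and 4 fell (median 0.16). PPP1R15A (GADD34), the stress-induced subunit that brings a phosphatase to eIF2α, was at 25.5, 24.9 and 24.6 CPM untreated and 230.2, 236 and 224 treated (log2 3.20 ± 0.06). PPP1CC, a catalytic subunit of that phosphatase, fell (-0.81 ± 0.03), and EIF2B3, a subunit of the exchange factor of eIF2, rose (0.87 ± 0.06).

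Genes of amino acid supply rose. ASNS, asparagine synthetase, was at 70.1, 66.9 and 76.2 CPM untreated and 348, 346 and 337 treated (log2 2.27 ± 0.04), and SLC7A11, the cystine transporter, at 54.5, 49.7 and 53.9 and 412, 408 and 394 (log2 2.94 ± 0.06). Amino acid transporters rose in 12 and fell in 1 of 15 (median 0.89), with SLC3A2 at 1.65 ± 0.04 and SLC1A5 at 1.39 ± 0.04. Cytosolic tRNA synthetases rose in 17 and fell in 1 of 20 (median 0.87), with WARS at 2.73 ± 0.05, SARS at 1.66 ± 0.04 and GARS at 1.43 ± 0.04. Serine and one-carbon enzymes were divided, 8 up and 6 down of 14 (median 0.50). The mitochondrial enzymes ALDH1L2 (2.79 ± 0.07), MTHFD2 (1.61 ± 0.04) and SHMT2 (1.21 ± 0.03) had the smallest adjusted p and rose.

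**Figure D2:**
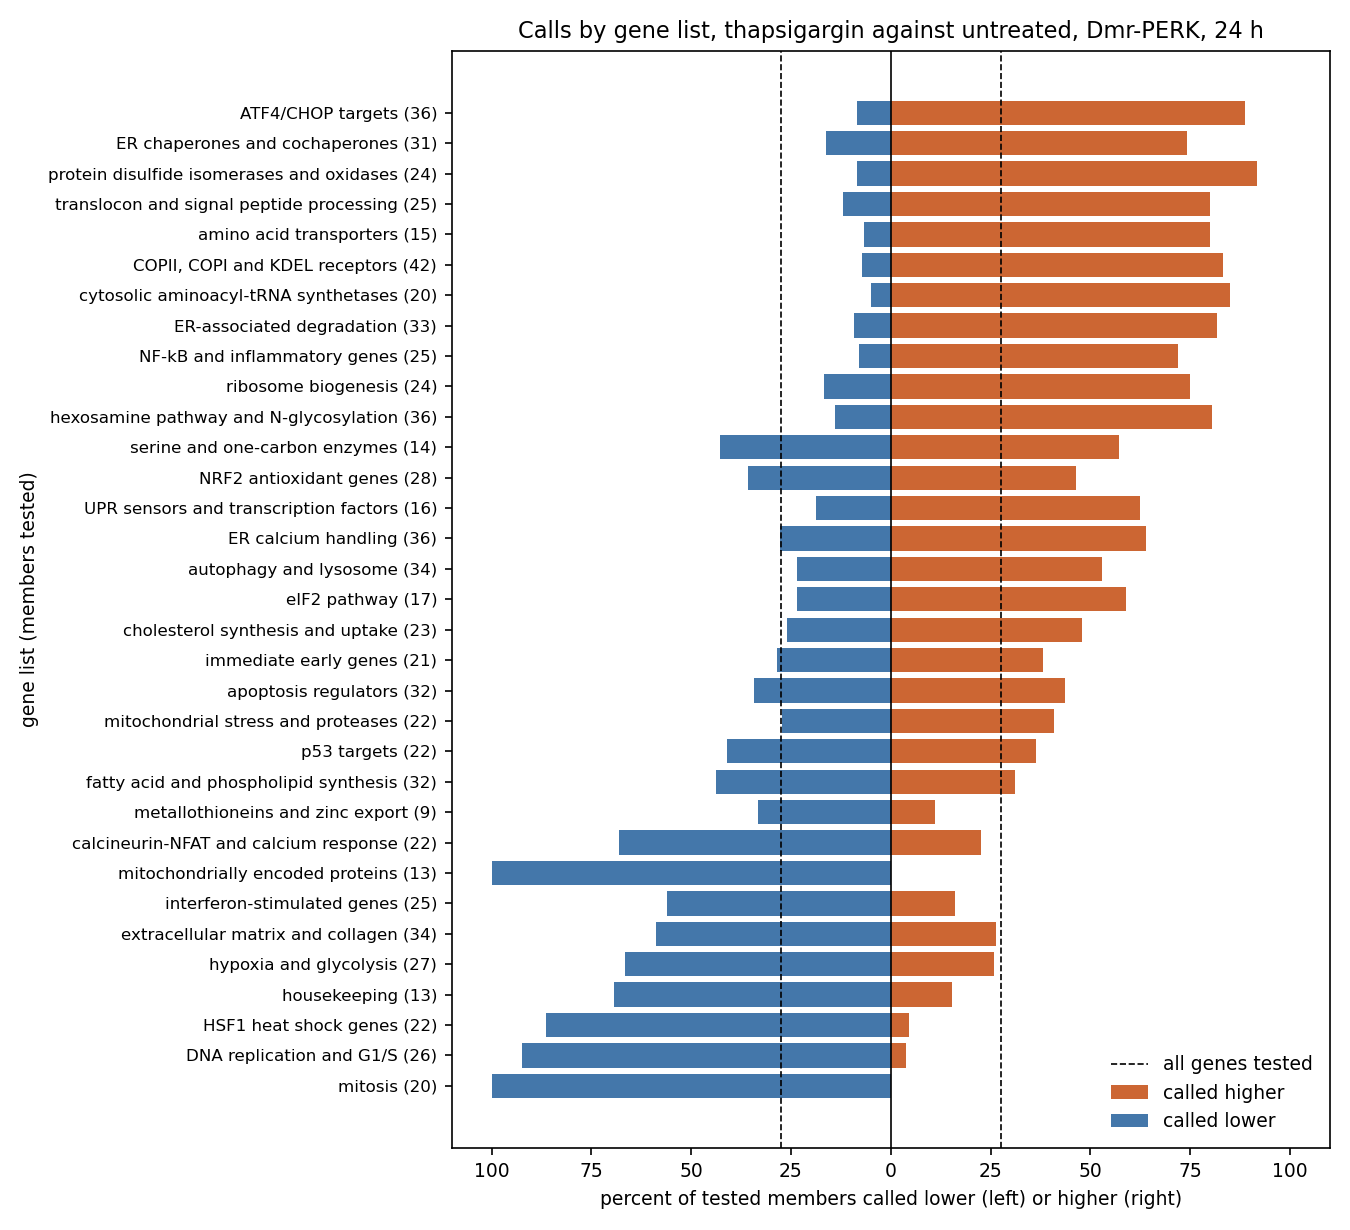
Share of the tested members of each of the 33 gene lists that were called higher (right) or lower (left) with thapsigargin at 24 h, with the number tested in brackets; dashed lines mark the shares over all genes tested, 27.5% each way. Lists are ordered by median log2 fold change, from ATF4/CHOP targets at 1.79 to mitosis at -1.55.

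Among the SERCA genes, whose pumps the drug blocks, ATP2A2 (SERCA2, ENSG00000174437.16, chromosome 12, 110280756 to 110351093, plus strand) encodes the main calcium pump of the ER. It was at 233, 237 and 236 CPM untreated and 355, 357 and 336 treated, a small rise (1.48-fold, log2 0.57 ± 0.04) in groups that did not overlap. The other SERCA genes, ATP2A1 (-0.66 ± 0.15) and ATP2A3 (-1.52 ± 0.17), fell. At the cell surface the calcium pumps parted: ATP2B1 rose from 57.7, 60.8 and 55.7 CPM to 204, 200.1 and 189 (log2 1.77 ± 0.05), and ATP2B4 fell from 102, 105 and 101 to 11.5, 11.1 and 11.5 (log2 -3.18 ± 0.07). For ATP2B4 this is a 9.04-fold fall, with each group within a narrow band. ATP2B3, at low counts (74 untreated and 5 treated), fell as well, and ATP2B2 did not pass (edgeR adjusted p = 0.43). The Golgi pumps ATP2C1 (0.31 ± 0.07) and ATP2C2 (0.49 ± 0.17) rose, the latter with an edgeR adjusted p = 0.0098, lost without thapsigargin replicate 2 (0.39, adjusted p = 0.075). The ATP2C2 call was also lost without untreated replicate 1 and without replicate 1 of every group.

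The channels that release ER calcium also went apart. Among the inositol trisphosphate receptors ITPR1 (1.19 ± 0.07) and ITPR2 (0.79 ± 0.08) rose, while ITPR3 fell from 56.7, 57.8 and 52.3 CPM to 17.6, 16.3 and 16.3 (log2 -1.73 ± 0.06). Among the ryanodine receptors RYR3 (1.40 ± 0.13) and RYR2 (1.49 ± 0.50, 32 and 84 counts) rose by edgeR, neither passing on TPM values, and RYR1 did not pass (-0.10 ± 0.10, edgeR adjusted p = 0.41). TMCO1, a channel that lets calcium out of an overfilled ER, rose by 0.55 ± 0.05.

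Store-operated entry refills the ER when STIM proteins sense its calcium and open ORAI channels. ORAI1 rose (0.80 ± 0.08), and ORAI2 (-0.23 ± 0.04) and ORAI3 (-0.68 ± 0.12) fell. STIM1 (0.24 ± 0.05), STIM2 (-0.26 ± 0.06) and the STIM regulator TMEM110 (-0.48 ± 0.09) passed by edgeR and not on TPM values. SARAF, which closes the channels again, rose by 0.33 ± 0.04. SLN, a peptide inhibitor of SERCA, had 153 counts untreated and 7 treated (-4.28 ± 0.42), and PLN, its relative, was at 7 and 5 counts.

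The calcium-binding proteins of the ER and Golgi in this list rose. NUCB2 was at 101, 102 and 94.7 CPM untreated and 496, 501 and 481 treated (log2 2.31 ± 0.04). CALR, the main calcium store protein of the ER, was at 743, 739 and 741 and 1427, 1414 and 1334 CPM (log2 0.91 ± 0.02), and the membrane-bound CANX rose by 1.62 ± 0.03. RCN1 (0.80 ± 0.03), RCN2 (0.31 ± 0.05), RCN3 (0.56 ± 0.07), CALU (0.56 ± 0.03), SDF4 (0.24 ± 0.05) and NUCB1 (0.26 ± 0.04) rose too, as did HAX1 (1.09 ± 0.04), a regulator of SERCA. Over the 36 genes of ER calcium handling 23 rose, 10 fell and 3 did not pass (median 0.32). Genes of calcineurin, NFAT and the calcium response fell in 15 and rose in 5 of 22 (median -0.41). RCAN1, an inhibitor of calcineurin, rose: it was at 42.7, 46.3 and 44.3 CPM untreated and 253, 254 and 242 treated (log2 2.49 ± 0.05). Its untreated level itself moved, averaging 225 CPM at 4 h and 56.9 at 8 h, with 827 CPM in thapsigargin at 4 h. RCAN3 (-2.18 ± 0.07) and the calmodulin gene CALM3 (-1.82 ± 0.04) fell.

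Among genes averaging at least 5 CPM in the higher group, with groups that did not overlap, the largest rises lay outside the lists above. Whether these genes belong to the same pathways was not tested. SPRR2D, a protein of the cornified envelope of skin, was at 0 in the 3 untreated libraries and at 45.9, 43.8 and 43.4 CPM in the treated ones, 3021 counts in all and at least 1086-fold higher (against 3 counts over the group). OLAH, a thioesterase of fatty acid synthesis, was at 0.644, 0.857 and 0.848 CPM untreated and 207, 199 and 187 treated (log2 7.99 ± 0.13). SPX, which encodes the peptide hormone spexin, was at 9.12, 7.76 and 9.06 and 507, 504 and 489 CPM (log2 5.85 ± 0.06). BHLHA15 (MIST1), a transcription factor of secretory cells, went from 0.179, 0.171 and 0.0892 CPM to 12, 12.2 and 12.6 (log2 6.32 ± 0.23). In each of these genes every treated library lay far above every untreated one. ESRP1, a splicing regulator of epithelial cells, rose by 7.16 ± 0.28 to 9.16, 8.02 and 8.22 CPM, and KLHDC7B by 7.50 ± 0.27. Beside ESRP1, the other 9 epithelial markers did not rise: 6 fell, 2 of those tested did not pass and KRT19 was untested at 0 and 2 counts, and the list summed to 594 to 611 CPM untreated and 389 to 427 treated. Their part in the ESRP1 result was not tested. The pseudogenes CLUHP10, CLUHP4 and CLUHP5 had 1, 2 and 2 counts untreated and 847, 1041 and 673 treated, but their assignment is uncertain because they share sequence with CLUH.

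The largest falls included receptors, matrix proteins and developmental factors. DRD1, a dopamine receptor, was at 20.0, 27.3 and 20.1 CPM untreated and 0, 0 and 0.13 treated (log2 -8.46 ± 0.35). IGFBP5, a secreted binding protein of insulin-like growth factors, was at 125, 143 and 104 and 0.628, 1.03 and 0.812 CPM (log2 -7.23 ± 0.31). HAPLN1, which links hyaluronan to proteoglycans, was at 44.6, 59 and 43.5 and 0.838, 1.03 and 0.78 CPM (log2 -5.82 ± 0.18). In these 3 genes no treated library exceeded 1.03 CPM. FOXS1, a forkhead factor (-7.82 ± 0.30), KRT75 (-7.01 ± 0.22), SDPR, a protein of caveolae (-6.80 ± 0.18), EDN2, endothelin 2 (-6.73 ± 0.28), the long non-coding RNA MIAT (-6.36 ± 0.16), TMEM255A (-6.16 ± 0.22), the homeobox factor LHX1 (-5.96 ± 0.31), the corepressor HR (-5.79 ± 0.16) and FXYD6, a regulator of the sodium pump (-5.73 ± 0.21), completed the 12 lowest.

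Inflammatory genes held 3 of the 12 largest rises. CXCL8 (interleukin 8, ENSG00000169429.10, chromosome 4, 73740506 to 73743716, plus strand), a neutrophil chemokine, was at 0.966, 1.29 and 1.07 CPM untreated and 142, 128 and 109.9 treated (log2 6.83 ± 0.24). IL1A was at 0.465, 0.6 and 0.759 CPM untreated and between 38.9 and 41.8 CPM in the 3 treated libraries (log2 6.06 ± 0.14), and TSLP, an epithelial cytokine, rose by 6.52 ± 0.14. The treated libraries of CXCL8 spread from 109.9 to 142 CPM, with replicate 3 the lowest. Of 25 NF-kB and inflammatory genes 18 rose, 2 fell and 5 did not pass (median 0.79). Of 25 interferon-stimulated genes, 14 fell and 4 rose (median -0.53), with IFIT1 at -3.27 ± 0.17, OAS3 at -2.13 ± 0.10 and ISG20 at 2.69 ± 0.12.

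Regulators of apoptosis were divided, 14 up and 11 down of 32 (median 0.07, which turned to -0.04 without replicate 2 of every group). TNFRSF10B (DR5), a death receptor induced by CHOP, rose by 1.83 ± 0.05. BMF, a BH3-only protein that promotes death, was at 17.7, 20.9 and 19.5 CPM untreated and 0.576, 0.596 and 0.682 treated (log2 -4.93 ± 0.19), and APAF1 of the apoptosome fell (-1.84 ± 0.07). The untreated level of BMF was not constant over time: it averaged 1.62 CPM untreated and 1.11 treated at 4 h. Among 22 p53 targets 8 rose and 9 fell (median -0.05, 0.06 on log2(TPM + 1)), with GADD45A at 1.84 ± 0.06.

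Every one of the 20 mitosis genes fell (median -1.55). KIF20A, a kinesin of cytokinesis, was at 195, 194 and 206 CPM untreated and 30.4, 30.5 and 28.4 treated (log2 -2.74 ± 0.06), and KIF11 (-1.75 ± 0.04) and BUB1 (-1.46 ± 0.04) fell with it. Genes of DNA replication and the G1/S step fell in 24 and rose in 1 of 26 (median -0.87). RRM2, which makes deoxynucleotides, was at 259, 256 and 266 and 55, 60.4 and 52.9 CPM (log2 -2.22 ± 0.05), and MCM4 fell by 1.26 on the log2 scale. CDC6, which loads the replicative helicase, was the gene that rose, from 103, 89.1 and 95.4 CPM to 321, 319.9 and 299 (log2 1.70 ± 0.05). CCND1 (cyclin D1) was at 187, 187 and 183 CPM untreated and 77.8, 77.2 and 70.1 treated (log2 -1.31 ± 0.05).

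Cytosolic chaperones moved against those of the ER. HSPA1A, the inducible HSP70, was at 376, 342 and 346 CPM untreated and 44.8, 45.7 and 40.2 treated (log2 -3.03 ± 0.10), and CRYAB, a small heat shock protein, at 323, 329 and 334 and 26.4, 28.9 and 27 (log2 -3.58 ± 0.06). The treated libraries of both lay well below the untreated ones. Untreated levels of HSPA1A moved over time: it averaged 85.2 CPM untreated and 11.1 treated at 4 h, and 353 CPM untreated at 8 h. HSPA1A has a near-identical copy, so its counts are uncertain. Heat shock genes driven by HSF1 were mostly lower, with 19 of 22 called lower and 1 higher (median -0.77), with HSPB1 at -2.17 ± 0.06 and HSP90AA1 at -1.38 ± 0.04. Untreated HSP90AA1 averaged 436 CPM at 4 h and 803 at 16 h.

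Lipid genes had no common direction at 24 h. Cholesterol synthesis and uptake held 11 that rose and 6 that fell of 23 (median 0.13). CYP51A1 rose by 0.90 ± 0.04 and HMGCS1, the entry enzyme of sterol synthesis, from 157, 147 and 157 CPM to 204, 201 and 196 (log2 0.38 ± 0.05), while EBP fell (-1.62 ± 0.08). Of 32 fatty acid and phospholipid genes, 10 rose and 14 fell (median -0.07, 0.02 on log2(TPM + 1)). LPIN1 (0.77 ± 0.04) and PCYT1A (0.58 ± 0.03), which make phospholipid precursors, rose, and the desaturase FADS2 fell (-1.35 ± 0.04).

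Of 34 matrix and collagen genes, 20 fell and 9 rose (median -0.59). THBS1 (thrombospondin 1) was at 266, 309.7 and 253 CPM untreated and 36.3, 36 and 34.1 treated (log2 -2.97 ± 0.07), and SPARC fell (-1.67 ± 0.03). TNC (tenascin C) rose from 111, 105 and 101 CPM to 647, 615 and 554 (log2 2.51 ± 0.05). The osteoblast markers COL1A1 (-2.30 ± 0.06) and RUNX2 (-1.88 ± 0.08) fell and ALPL rose (1.01 ± 0.10). Their summed level was 986 to 1134 CPM untreated and 236 to 254 treated, and its part in the matrix result was not tested. The neuronal markers summed to 111 to 123 and 38.3 to 39.3 CPM. Of these the tubulin TUBB3 fell from 86.2 to 8.06 CPM on average (log2 -3.44 ± 0.07), and MAP2 rose from 9.67 to 14.99 CPM (0.63 ± 0.11). The endothelial ones summed to 4.73 to 5.49 and 2.15 to 3.28 CPM.

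The remaining lists gave smaller or mixed shifts. Of 27 hypoxia and glycolysis genes, 18 fell and 7 rose (median -0.61), with LDHA (-1.78 ± 0.04) and PKM (-1.09 ± 0.03) lower and VEGFA (2.05 ± 0.05) higher. The 13 mitochondrially encoded proteins fell together (median -0.45), MT-ND6 by 0.65, MT-ATP6 by 0.50 and MT-ND3 by 0.45 on the log2 scale. Of 22 mitochondrial stress genes and proteases, 9 rose and 6 fell (median 0.06), with LONP1 (1.36 ± 0.04), DNAJA3 (1.11 ± 0.05) and PINK1 (-1.33 ± 0.06). Of 28 NRF2 antioxidant genes, 13 rose and 10 fell (median 0.44): SRXN1 (2.06 ± 0.04) and HMOX1 (0.77 ± 0.08) rose. Of 34 autophagy and lysosome genes, 18 rose and 8 fell (median 0.19), among them WIPI1 (2.73 ± 0.06), the ER-phagy receptor CCPG1 (2.25 ± 0.06) and MAP1LC3B (1.91 ± 0.03).

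Of 24 ribosome biogenesis genes, 18 rose and 4 fell (median 0.61), with RRP12 (1.54 ± 0.05), GNL3 (1.09 ± 0.04) and DDX21 (1.03 ± 0.04). Of 21 immediate early genes, 8 rose and 6 fell (median 0.11), MYC by 1.75 ± 0.07, while KLF6 fell (-0.98 ± 0.06). Metallothioneins and zinc exporters fell in 3 and rose in 1 of 9 (median -0.21), MT1E (-1.33 ± 0.06) and MT2A (-0.35 ± 0.06) against SLC30A1 (0.46 ± 0.05). Of 13 housekeeping genes 9 fell and 2 rose (median -0.71): ACTB was at 3897, 3846 and 3891 CPM untreated and 1139, 1149.8 and 1055 treated (log2 -1.80 ± 0.05), and GAPDH (-0.83 ± 0.03) and PGK1 (-0.89 ± 0.03) fell. CPM are shares of a library's counts, so such genes give no fixed reference here.

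How the response at 24 h differed from that at 4 h was tested as a difference of effects, each against untreated cells of its own time. The comparison shares the 24 h libraries of both groups. It was called in 11295 genes (41.8%), with a greater (more positive) effect at 24 h in 5216 (19.3%) and a lower (more negative) one in 6079 (22.5%). DDIT3 and other early stress genes stood lower against untreated cells at 24 h than at 4 h. DDIT3 rose by 5.53 at 4 h, 5.19 at 8 h, 4.43 at 16 h and 3.90 at 24 h (difference between 4 and 24 h -1.63 ± 0.12). ATF3 (-1.76 ± 0.11), SESN2 (-1.53 ± 0.11), CHAC1 (-1.23 ± 0.16) and HERPUD1 (-1.01 ± 0.07) had likewise lower effects at 24 h. Untreated levels of these genes moved as well. SESN2 averaged 25.6 CPM untreated and 260 treated at 4 h, and 56.1 and 217 at 16 h. ATF3 averaged 16.9 CPM untreated and 309 treated at 4 h, and 32.7 and 117 at 16 h. Untreated HERPUD1 went the other way, from 123 CPM at 4 h to 44.8 at 16 h. For DNAJB9 (-0.04 ± 0.08, edgeR adjusted p = 0.79) and PDIA4 (0.21 ± 0.10, adjusted p = 0.095) the difference did not pass, and HSPA5 (0.30 ± 0.06) and HYOU1 (0.58 ± 0.05) had slightly greater effects at 24 h. The treated level of HSPA5 was lower at 24 h (6399 CPM on average) than at 4 h (9213 CPM), and its untreated level was 995 CPM at 4 h and 561 CPM at 24 h. HYOU1 averaged 936 CPM treated at 4 h and 1024 at 24 h, with 202 and 148 CPM untreated. CHAC1 averaged 57.1 CPM treated and 4.18 CPM untreated at 4 h. Its treated level was thus close to that at 24 h given above, and its untreated level was lower at 4 h. The difference between these levels was not tested. TRIB3 (1.09 ± 0.10), ASNS (0.96 ± 0.06) and TXNIP (1.65 ± 0.13) had greater effects at 24 h.

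Secretory lists gained between the times. Disulfide isomerases and oxidases had 19 greater and 0 lower effects of 24, and the hexosamine and N-glycosylation list 29 greater and 2 lower of 36. Cholesterol genes went back: their median was 0.86 at 4 h, and 18 of 23 had a lower effect at 24 h and 1 a greater one. HMGCS1 rose by 2.48 at 4 h against 0.38 at 24 h (difference -2.10 ± 0.07, edgeR adjusted p = 8.0e-45). Mitosis genes had a median of -0.02 at 4 h, -0.47 at 8 h, -0.36 at 16 h and -1.55 at 24 h, and all 20 had a lower effect at 24 h than at 4 h. KIF20A averaged 83.0 CPM untreated and 81.8 treated at 4 h, so its untreated level was higher at 24 h. Immediate early genes had a median of 1.11 at 4 h, and 14 of 21 had a lower effect at 24 h and 1 a greater one, which was lost without thapsigargin 24 h replicate 3.

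Of the greatest gains, OLAH rose by 0.46 at 4 h and 7.99 at 24 h, and RGS4 (4.78 ± 0.33), VEPH1 (4.62 ± 0.68) and MARCO, a scavenger receptor (4.59 ± 0.24), gained too. SPRR2D gained 10.79 ± 4.18 on untreated levels at or near 0, so this fitted value is no bound, and it did not pass without replicate 3 of every group (edgeR adjusted p = 1). FOXS1 (-8.01 ± 0.37), DRD1 (-7.95 ± 0.47), SDPR (-6.72 ± 0.26), IGFBP5 (-6.52 ± 0.38) and KRT75 (-6.45 ± 0.25) had the greatest losses. For CXCL8 the untreated cells themselves moved: 128, 102 and 88.6 CPM at 4 h against 0.966, 1.29 and 1.07 at 24 h, with 1034, 915 and 943 in thapsigargin at 4 h. Its rise over untreated cells was thus smaller at 4 h (3.18) although its level was higher.

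**Figure D3:**
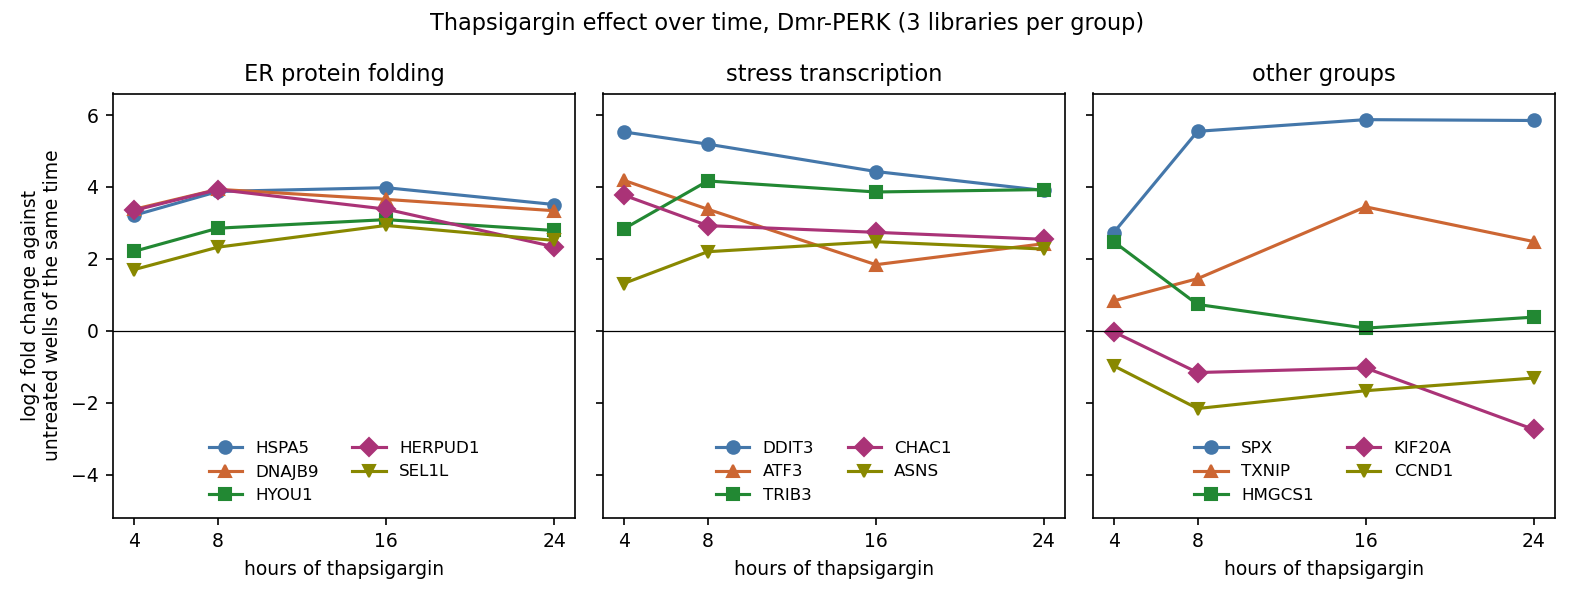
Log2 fold change of thapsigargin against untreated wells of the same time (y axis) at 4, 8, 16 and 24 h (x axis) for 15 genes of Dmr-PERK cells, 3 libraries per group. DDIT3, ATF3 and CHAC1 are highest at 4 h, SPX and TRIB3 are higher from 8 h on, HMGCS1 returns from 2.48 to 0.38 and KIF20A is lowest at 24 h.

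Thapsigargin was set against the dimerizer, which pairs up the construct's kinase, at 24 h in the same line. The comparison shares the 3 thapsigargin libraries. The 2 agents differed in 10471 genes (38.8%), higher with thapsigargin in 4134 (15.3%) and lower in 6337 (23.5%). With RLE scaling of the counts it was 4467 higher and 6029 lower. With limma on TPM, which changes the measure and the test as well, it was 5520 higher and 3114 lower on log2(TPM + 1) and 5209 and 3180 on log2(TPM + 0.1), where the median of all genes moved from 0.00 to 0.06 and 0.11. ER folding genes set the agents apart. HSPA5 was at 1084, 1124 and 1078 CPM with dimerizer against 6683, 6527 and 5987 with thapsigargin (log2 difference 2.55 ± 0.04). DNAJB9 (2.80 ± 0.05), CRELD2 (2.74 ± 0.07), SDF2L1 (2.52 ± 0.08), HYOU1 (2.12 ± 0.04) and PDIA4 (2.09 ± 0.08) were higher with thapsigargin as well. Of 31 ER chaperones and cochaperones 24 were higher and 0 lower, of 24 disulfide isomerases and oxidases 20 and 1, of 42 vesicle genes 36 and 3, and of 33 degradation genes 20 and 3.

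ATF4 and CHOP targets were divided, 13 higher with thapsigargin and 14 lower of 36. TRIB3 was at 389, 386 and 385 CPM with dimerizer and 395, 387 and 379 with thapsigargin, a log2 difference of -0.00 ± 0.06 (edgeR adjusted p = 1), and ATF3 did not pass (0.10 ± 0.06, adjusted p = 0.22). ASNS was at 438, 457 and 444 CPM with dimerizer, above all 3 thapsigargin libraries (-0.38 ± 0.04). CHAC1 (-0.41 ± 0.07), SESN2 (-0.31 ± 0.07) and ATF4 (-0.17 ± 0.03) were lower with thapsigargin, the last pair not on TPM values. DDIT3, at 83.3, 92.2 and 89.4 CPM with dimerizer, was higher with thapsigargin (0.87 ± 0.06), as were HERPUD1 (1.03 ± 0.05) and PPP1R15A (0.47 ± 0.05). XBP1 (0.13 ± 0.04, edgeR adjusted p = 0.014) passed with all libraries and not without replicate 2 of every group (0.12, adjusted p = 0.14).

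Cholesterol genes were higher with thapsigargin than with dimerizer in 20 and lower in 1 of 23 (median 1.17). HMGCS1 was at 76.2, 79.2 and 79 CPM with dimerizer, below both other groups (thapsigargin against dimerizer 1.36 ± 0.06). The 20 mitosis genes were all lower with thapsigargin (median -0.68), and HSPA1A (-1.30 ± 0.11) and CCND1 (-1.20 ± 0.05) were lower too. Cytosolic tRNA synthetases were lower in 15 and higher in 2 of 20 by edgeR, but lower in 2 and higher in 3 on log2(TPM + 1). Of 24 ribosome biogenesis genes 21 were lower and 0 higher by edgeR, and lower in 13 and higher in 2 on log2(TPM + 1). Beyond the fixed panel, BHLHA15 (4.40 ± 0.18), DUX4L25 (3.96 ± 0.76), DNAJC12 (3.38 ± 0.19), TMC3-AS1 (3.22 ± 0.21) and CXCL8 (3.19 ± 0.16) were highest with thapsigargin. BCAM (-3.75 ± 0.08), TGM2 (-3.19 ± 0.10), TGFBI (-2.98 ± 0.17), HAPLN1 (-2.94 ± 0.27) and HR (-2.74 ± 0.25) were lowest.

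**Figure D4:**
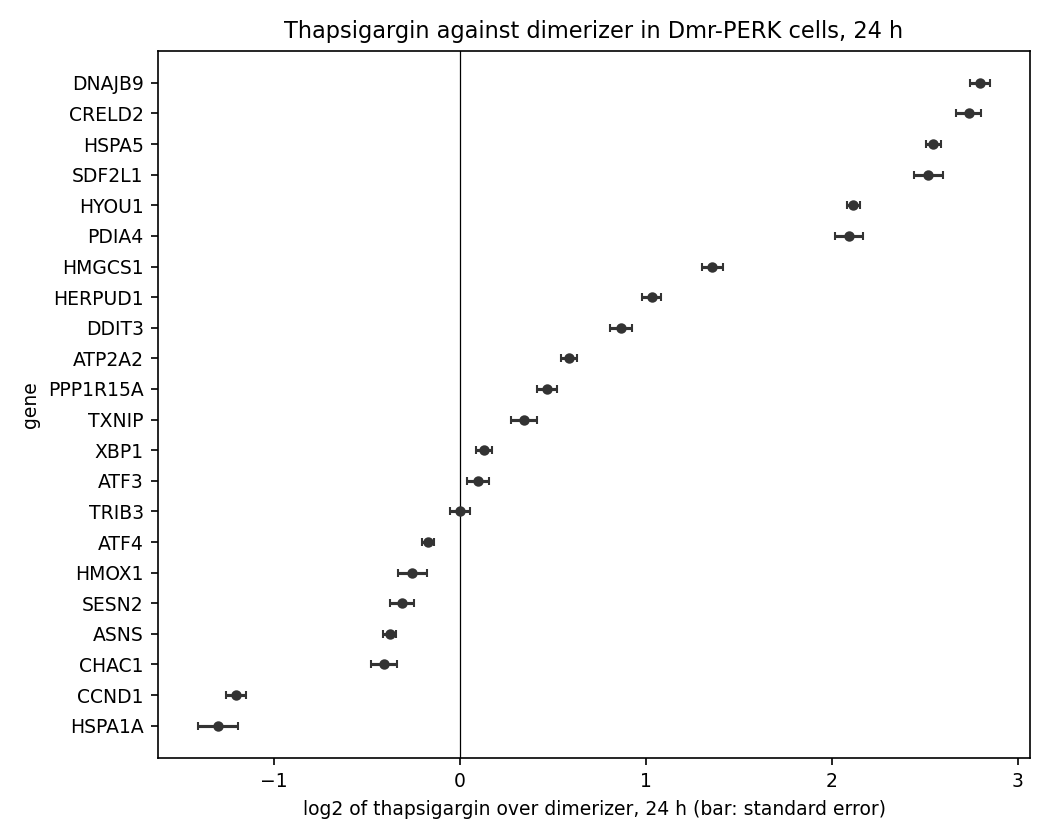
Log2 difference of thapsigargin against dimerizer at 24 h in Dmr-PERK cells (x axis) for 22 genes of the fixed panel, with points for the edgeR estimate and bars for its standard error, 3 libraries per group. ER folding genes lie between 2.09 and 2.80, TRIB3 and ATF3 lie at 0 within about 2 standard errors, and HSPA1A and CCND1 lie at -1.30 and -1.20.

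In Parental cells thapsigargin at 24 h gave 14747 calls (54.6%), 7225 higher (26.8%) and 7522 lower (27.9%). The difference between the lines in the effect was tested directly, and the libraries of the lines are separate. It was called in 5286 genes (19.6%), 987 of them by at least 2-fold. The effect was greater in Dmr-PERK cells (log2 difference above 0) in 2072 (7.67%) and lower in 3214 (11.9%), or 2066 and 1955 on log2(TPM + 1) and 1818 and 1722 on log2(TPM + 0.1). Without thapsigargin replicate 3 of Dmr-PERK cells 4502 were called, and without replicate 2 of every group 3199.

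For several central genes the difference between the lines did not pass. HSPA5 rose by 3.64 in Parental cells (difference -0.12 ± 0.06, edgeR adjusted p = 0.11) and DDIT3 by 4.18 (difference -0.28 ± 0.12, adjusted p = 0.098). XBP1 (0.13 ± 0.07, edgeR adjusted p = 0.18) and SESN2 (-0.07 ± 0.10, adjusted p = 0.7) did not pass either. Many other ER genes rose less in Dmr-PERK cells: CRELD2 (-1.04 ± 0.09), PDIA4 (-0.56 ± 0.10), HERPUD1 (-0.54 ± 0.08), HYOU1 (-0.52 ± 0.05) and ATP2A2 (-0.49 ± 0.06) among the panel. Of 31 chaperones and cochaperones 15 had a lower and 1 a greater effect there, and of 33 degradation genes 17 and 0. Of 36 ATF4 and CHOP targets 16 had a greater and 11 a lower effect in Dmr-PERK cells. ASNS (0.80 ± 0.06), CHAC1 (0.92 ± 0.13) and SLC7A11 (1.03 ± 0.08) rose more there, and PPP1R15A (-0.52 ± 0.09), TRIB3 (-0.35 ± 0.10) and ATF3 (-0.34 ± 0.11) less. TXNIP had a lower effect as well (-1.62 ± 0.14).

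Cholesterol genes had a lower effect in Dmr-PERK cells in 19 and a greater one in 0 of 23, with a median of 0.70 in Parental cells against 0.13. NF-kB and inflammatory genes had a greater one in 11 and a lower one in 0 of 25. CXCL8 was at 0.976, 0.831 and 1.33 CPM in untreated and 9.37, 6.69 and 6.35 in treated Parental cells, all treated ones below those of Dmr-PERK cells (difference 4.00 ± 0.67). SPX was at 1.45, 1.04 and 1.76 and 261, 266 and 267 CPM in Parental cells, a greater rise (difference -1.69 ± 0.15). Matrix genes had a more positive effect in Dmr-PERK cells in 14 and a more negative one in 6 of 34. Their median was -0.85 in Parental cells against -0.59, so a more positive effect can be a smaller fall.

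**Figure D5:**
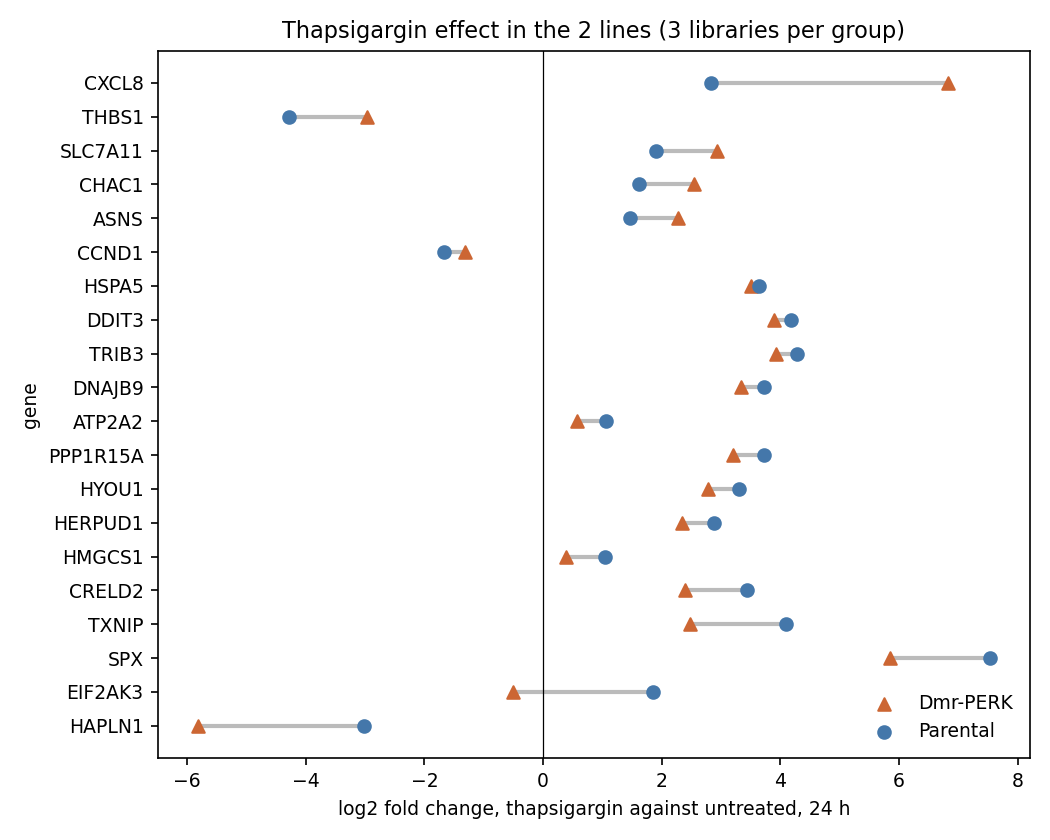
Log2 fold change of thapsigargin against untreated at 24 h (x axis) for 20 genes in Dmr-PERK (triangles) and Parental cells (circles), 3 libraries per group, ordered by the difference. HSPA5 and DDIT3 nearly coincide, CXCL8 lies at 6.83 against 2.84, and EIF2AK3, whose counts may hold reads of the construct, lies at -0.51 against 1.85.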

How the data were processed

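RNA-seq was made from total RNA of U2OS cells grown in 24-well plates, with a directional library kit, per the labels' protocols. The authors deposited estimated counts per gene and TPM for 120 libraries, made with Salmon 0.9.1 on GRCh38, per the submitters' processing notes; the annotation, the settings and the use of strand are not given in the sources used here. Reads of overlapping, antisense or near-identical genes may therefore be shared, and 1911 genes share a symbol. Of the non-zero deposited estimated counts 49.5% were whole within 1e-05, and all were rounded. The TPM deposited by the authors have a smallest value of 0.063122 in place of 0.

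From the counts, edgeR 4.0.16 (R 4.3.3) fitted all 120 libraries by group, after filterByExpr with a minimum count of 10 (26998 genes) and TMM scaling (factors 0.839 to 1.169), with the quasi-likelihood test and Benjamini-Hochberg adjustment over all genes tested. The negative binomial dispersion was 0.00142 with 80 residual degrees of freedom. Standard errors are the log2 fold change over the root of F. The method was also run on simulated counts in which only a small share of genes, none of them low, was changed. That setting differs from this comparison, and no conclusion is drawn from it here. Alternatives used DESeq2 1.42.0, limma 3.58.1 on log2 TPM, other scalings, filters, blocks and left-out libraries, among them Dmr-PERK thapsigargin replicate 3, which was added after seeing the data for the comparisons of lines, times and agents. Intervals on ratios of low counts are exact at 95% and cover counting error only. Python 3.11.15, pandas 2.3.3, scipy 1.17.1 and matplotlib 3.10.9 made summaries and figures. Motifs were searched in RefSeq promoters of 300 bases, 250 before and 50 after the start. Protein sequences were not used here, so the planned look at ER retention signals was not made.

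Named genes are the 12 genes with the highest and the 12 with the lowest log2 fold change among those called, where the higher group averaged at least 5 CPM and the groups did not overlap, leaving out clone names; the 3 smallest adjusted p in each of 33 lists (787 genes tested of 798), or the most abundant member where none was called; all members of the sensor and calcium lists; and a panel of 24 genes. For the lines, times and agents they are the panel and the 5 highest and 5 lowest. The remaining genes named there belong to the first set. The genes and lists were chosen with earlier results of these data known, and list counts are a description with no test of the list. Arsenite libraries entered the fit and no comparison. A few genes that these rules name are not reported here.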

Additional observations from a re-analysis of the deposited data

Results flagged for a closer look

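The effect of thapsigargin at 24 h differed between the lines by a direct edgeR test of the difference (adjusted p under 0.05, log2, Dmr-PERK minus Parental) in 16 of the panel of 24 genes, against 19.6% of all genes tested. Their values are given here with the 5 highest and 5 lowest differences, which were chosen for their size; other genes named in the report differed as well. The greatest was NTRK3, a neurotrophin receptor, at 4.41: it was at 1.95 ± 0.280 CPM untreated and 3.18 ± 0.447 treated in Dmr-PERK cells, and at 19.3 ± 0.450 and 1.50 ± 0.106 in Parental cells (SD, n = 3 each). CXCL8 differed by 4.00, the matrix protease MMP3 by 3.86, CYP24A1, which degrades vitamin D, by 3.50 and the smooth muscle coactivator MYOCD by 3.20. CYP24A1 did not pass without replicate 3 of every group (2.85, edgeR adjusted p = 0.13) or on TPM values (0.23 on log2(TPM + 1), limma adjusted p = 0.72).

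ANKRD20A17P (-3.27), C7orf57 (-2.87), MGAT3 (-2.80), HAPLN1 (-2.80) and PRUNE2 (-2.69) had the lowest differences. MGAT3 had 168 counts untreated and 2 treated in Dmr-PERK cells, so its fold rests on 2 counts (ratio 77.88, 95% exact interval 21.23 to 648.4, counting error only), and its difference did not pass without replicate 1 or 2 of every group and had the opposite sign on TPM values (1.14 on log2(TPM + 1), limma adjusted p = 1.39e-05).

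Among stress genes the log2 effect was higher in Dmr-PERK cells for CHAC1 (0.92), ASNS (0.80), CCND1 (0.36, a smaller fall) and ATF4 (0.22), and lower for TXNIP (-1.62), CRELD2 (-1.04), HMGCS1 (-0.67), PDIA4 (-0.56), HERPUD1 (-0.54), HYOU1 (-0.52), PPP1R15A (-0.52), ATP2A2 (-0.49), SDF2L1 (-0.43), DNAJB9 (-0.38), TRIB3 (-0.35) and ATF3 (-0.34). The calls of ATF4 (0.16, edgeR adjusted p = 0.10) and TRIB3 (-0.34, adjusted p = 0.097) were lost without replicate 2 of every group, that of ATF3 without replicate 1 (-0.32, adjusted p = 0.17), and those of ATF3 and DNAJB9 on TPM values.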

How the results depend on the processing

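Over 17 alternatives the count of genes called with thapsigargin at 24 h in Dmr-PERK cells lay between 13161 and 14892 (main 14851; DESeq2 14480), and 0 calls changed direction except on TPM values, where at most 8 lower calls became higher and 1 higher call became lower. On log2(TPM + 1) the calls of at least 2-fold were 1570 higher and 1573 lower, against 2436 and 3305; the pseudocount shrinks folds of low genes. Between the lines, leaving out replicate 1, 2 or 3 of every group gave 3199 to 4566 calls, 1141 to 2011 higher and 2058 to 2555 lower, with fewer samples; lower calls were 1955 on log2(TPM + 1) and 1722 on log2(TPM + 0.1). Against dimerizer, lower calls were 3114 and 3180 on these scales, and the cause was not tested. The line difference of MGAT3 turned to 1.14 on log2(TPM + 1) and 0.74 on log2(TPM + 0.1), the first past the threshold (limma adjusted p = 1.39e-05) and the second not (limma adjusted p = 0.33), and the cause was not tested. Without Dmr-PERK thapsigargin replicate 3, 10757 genes changed between 4 and 24 h and 8960 differed between the agents. Counted once per alternative, so that 1 value can enter several times, values for single genes lost a call 50 times and gained one 28 times. List counts moved by over 1.5 times in 19 cases, counted the same way. The medians of 3 lists changed sign: apoptosis from 0.07 to -0.04 without replicate 2, fatty acid genes from -0.07 to 0.02 and p53 targets from -0.05 to 0.06, both on TPM values.

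Replicate numbers did not pair the samples: same-numbered untreated and thapsigargin libraries at 24 h had deviations that correlated at -0.021, 0.025 and 0.006. With the replicate block 14854 genes were called over all libraries and 14009 with the compared groups only. The block gave 14761 and 14200 calls in Parental cells, 5299 and 6367 between the lines, 11289 and 11676 between the times and 10487 and 10478 between the agents. At 16598884 estimated counts in the shallowest of the 6 libraries, genes with few counts are the ones whose folds the depth limits, and the lower bounds given for genes at 0 use 3 counts.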
